A study of Mus musculus with 63 samples.

Results

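Depp1, Pik3ip1 and Fam214a were followed here together with 6 genes of FoxO signalling and of the stress response around it, namely Bbc3, Sesn1, Sesn3, Irs2, Foxo1 and Foxo3. These 9 genes were chosen by symbol from 55401 rows of a gene count table, with their values after ethanol and saline in view. The reason was that Depp1 lay on the opposite side of the ethanol comparison from Pik3ip1, Fam214a and Bbc3. All 9 had a row in the table, and all 9 were among the 19974 genes that passed the filter on low counts. The choice used the ethanol comparison, so the ethanol values of these genes are given as a description without a test. The tests concern strain, conditioning, sex, the dependence of the ethanol difference on conditioning and sex, and transcript usage, which the choice did not use.

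The tissue was dorsal hippocampus, taken in adolescence from C57BL/6J and DBA/2J mice, both inbred strains. Males (M) and females (F) had received an acute injection of ethanol (EtOH, 1.5 g/kg) or saline (SAL), and had been fear conditioned (FC) or kept as controls without conditioning (noFC). Combining strain, sex, conditioning and drug gave 16 groups of 4 libraries, apart from 3 for male, fear-conditioned, saline-treated C57BL/6J mice. The 63 libraries were 31 of C57BL/6J and 32 of DBA/2J, 31 from males and 32 from females, 31 with saline and 32 with ethanol. Each library carries in its title 1 of 16 numbers, each given to a single strain and sex, and a letter. The labels do not say what either stands for or whether each library is a separate animal, so p-values measure the spread between libraries. The lower 8 numbers (31 libraries) form a first round of titles and the upper 8 (32 libraries) a second, since the letters that marked the drug were exchanged between them. Conditioning coincided with the letter in both rounds, so the 2 cannot be told apart. The labels name no transgene or altered allele, and the times between injection, conditioning and dissection are not given in the sources used here.

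FoxO proteins are forkhead transcription factors that act downstream of insulin and growth factor receptors. When these receptors are active, adaptors such as IRS2 recruit PI3 kinase, AKT is activated, and AKT phosphorylates FoxO proteins and keeps them out of the nucleus. When the signal is low, FoxO proteins enter the nucleus and raise the expression of genes for stress resistance, autophagy, metabolism and cell death, several of which feed back on PI3 kinase or mTORC1. In neurons this pathway is known for its part in metabolic and oxidative stress.

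The stretches of DNA before 3 of these genes are shown for the letters of forkhead motifs. Windows of 300 bases around RefSeq start sites (250 before and 50 after, build GRCm38.p6) were searched on both strands for GTAAACA (reverse complement TGTTTAC), for GTAAATA (reverse complement TATTTAC) and for CAAAACA (reverse complement TGTTTTG). All 9 genes had a window, 14 in total. Depp1 and Bbc3 are printed because they lay on opposite sides of the ethanol comparison. Sesn1 is printed because the stretch precedes the transcript that holds most of its counts. Only bases before the RefSeq start and outside annotated untranslated exons are printed, which leaves none of the single Pik3ip1 window (chr11:3330481-3330780, plus strand). All are on the plus strand, read from 5′ to 3′, and capitals mark a match to a motif of 7 letters.
Depp1 (chr6:116650434-116650608): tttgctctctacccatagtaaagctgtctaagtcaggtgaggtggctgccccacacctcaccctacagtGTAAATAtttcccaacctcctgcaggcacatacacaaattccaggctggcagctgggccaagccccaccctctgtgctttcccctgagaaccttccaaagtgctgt
Bbc3, second window (chr7:16310011-16310260): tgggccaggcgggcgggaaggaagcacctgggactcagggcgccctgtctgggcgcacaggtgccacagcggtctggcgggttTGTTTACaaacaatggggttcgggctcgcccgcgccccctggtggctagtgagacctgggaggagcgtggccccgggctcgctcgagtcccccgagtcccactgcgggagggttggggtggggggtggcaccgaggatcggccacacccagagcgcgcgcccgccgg
Sesn1, second window (chr10:41887189-41887438): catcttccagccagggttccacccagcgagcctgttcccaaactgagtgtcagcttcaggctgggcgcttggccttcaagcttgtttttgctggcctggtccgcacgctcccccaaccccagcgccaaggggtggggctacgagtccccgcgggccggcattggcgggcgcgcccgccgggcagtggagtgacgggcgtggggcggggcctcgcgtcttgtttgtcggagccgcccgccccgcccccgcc

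The Depp1 window held GTAAATA at position -181 from the start site, a motif present in 3.04% of all 32851 windows of 27025 genes. The second of 3 Bbc3 windows held TGTTTAC at -167, and the first of 2 Sesn1 windows held it at 23. This motif, GTAAACA on the other strand, stood in 3.65% of all windows. TGTTTTG stood in 2 overlapping windows of Fam214a and, at -37, in the Irs2 window, and its motif CAAAACA was present in 6.28% of all windows. The core AAACA (or TGTTT), which lies inside GTAAACA and CAAAACA, was present in 10 of the 14 windows and in 50.5% of all windows. For Pik3ip1 it was the match found, at position 22. These matches describe letters in the windows and say nothing of binding.

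Foxo1 (ENSMUSG00000044167, chromosome 3, 52268336 to 52353221) and Foxo3 (ENSMUSG00000048756, chromosome 10, 42181841 to 42276755) encode the transcription factors themselves. Irs2 (ENSMUSG00000038894, chromosome 8, 10984681 to 11008458) encodes the adaptor between insulin receptors and PI3 kinase, and Pik3ip1 (ENSMUSG00000034614, chromosome 11, 3330401 to 3342971) a membrane protein that inhibits PI3 kinase. Depp1 (ENSMUSG00000048489, chromosome 6, 116650609 to 116652794) is a FoxO-induced gene with a part in autophagy. Sesn1 (ENSMUSG00000038332, chromosome 10, 41809935 to 41908424) and Sesn3 (ENSMUSG00000032009, chromosome 9, 14275067 to 14333101) encode sestrins, stress-induced proteins that restrain mTORC1. Bbc3 (ENSMUSG00000002083, chromosome 7, 16308393 to 16318205) encodes PUMA, a BCL2 family protein that promotes cell death and is induced by p53 and FoxO3. Fam214a (ENSMUSG00000034858) lies on chromosome 9, 74952884 to 75032468. All positions are on GRCm38, all 9 genes are protein coding, and Irs2 and Foxo3 are on the minus strand.

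Scaled for exon length, the transcripts of these genes ranged from moderately abundant to scarce. The mean level in FPKM (counts scaled to a common library total and to exon length, SD over 63 libraries) was 18.7 ± 1.81 for Sesn1, 14.0 ± 1.18 for Irs2 and 9.75 ± 0.750 for Foxo3. It was 8.20 ± 0.941 for Fam214a, 7.91 ± 0.883 for Pik3ip1 and 7.87 ± 0.760 for Sesn3, which do not differ beyond their spread. Foxo1 (5.09 ± 0.511), Bbc3 (3.43 ± 0.536) and Depp1 (1.57 ± 0.779) were the scarcest. Depp1 had a mean of 58.8 counts per library (10 to 142), so its values carry more counting error than those of Sesn1, with a mean of 2096. Within groups the coefficient of variation was 28.6% for Depp1, 10.9% for Bbc3 and 5.20% for Sesn1.

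Total gene counts per library ranged from 21027659 to 61631742, with a median of 26379948. Within groups the libraries correlated with r between 0.9747 and 0.9938 over 93 pairs, and none were identical. The libraries differed widely in markers of the choroid plexus, the tissue next to the hippocampus that makes cerebrospinal fluid. The summed level of 10 such markers ran from 32.9 to 12260 CPM, counts per library scaled to the same total, and its median was 140 CPM. Fits with this marker level as a covariate are therefore named where they bear on a gene.

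The strain comparison asked how the dorsal hippocampus of the strains differs in these genes whatever the treatment. Foxo1 and Foxo3, the PI3 kinase inhibitor Pik3ip1, both sestrins, Bbc3 and Fam214a were lower in DBA/2J, at 0.855 (Fam214a) to 0.933 (Foxo3) times the C57BL/6J level. Depp1 was 1.69 times as high in DBA/2J, and Irs2 was not called. In all, 8 of 9 genes were called (adjusted p under 0.05, edgeR quasi-likelihood test, two-sided, adjusted over 19974 genes), in a comparison in which 50.0% of all genes were. Of the 9, 7 were lower, beside 24.5% of all genes, and 1 was higher, beside 25.5%. All strain values below are DBA/2J minus C57BL/6J on the log2 scale, with the standard error (SE).

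Foxo1 had 39.7, 46.0 and 54.1 CPM (lowest, median and highest) in 31 C57BL/6J libraries and 31.9, 42.2 and 51.1 CPM in 32 of DBA/2J. Foxo3 had 67.2, 77.1 and 85.8 CPM against 60.8, 72.3 and 83.1 CPM. Both ranges overlapped widely, although 27 and 29 of the 32 DBA/2J libraries lay below the C57BL/6J median. The difference was -0.13 for Foxo1 (SE 0.0336, adjusted p = 0.0015) and -0.10 for Foxo3 (SE 0.0261, adjusted p = 0.0011). Within each of the 8 combinations of sex, drug and conditioning both genes had a lower mean in DBA/2J. With the first round of titles alone neither was called (adjusted p = 0.072 and 0.088), with differences of -0.12 and -0.10.

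Irs2, upstream of PI3 kinase, stood at 75.0, 88.3 and 102 CPM in C57BL/6J and 59.7, 90.5 and 103 CPM in DBA/2J. The strains covered the same range apart from 3 libraries of DBA/2J. The difference was 0.01 (SE 0.031, 95% interval -0.05 to 0.08, adjusted p = 0.73), and its sign varied over the 8 combinations (5 positive, 3 negative). Pik3ip1 stood at 29.8, 34.8 and 43.2 CPM in C57BL/6J and 25.8, 32.3 and 39.1 CPM in DBA/2J. Of the DBA/2J libraries 25 lay below the C57BL/6J median, and 8 lay below every C57BL/6J library. The Pik3ip1 difference was -0.12 (SE 0.0253, adjusted p = 5e-05) and had this sign in all 8 combinations. It was -0.08 and not called in the second round of titles alone (adjusted p = 0.097).

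Depp1 went the other way, with 0.451, 1.52 and 2.89 CPM in C57BL/6J and 1.04, 2.47 and 5.14 CPM in DBA/2J. Of the 32 DBA/2J libraries 27 lay above the C57BL/6J median and 10 above every C57BL/6J library. The difference was 0.76 (SE 0.0917, adjusted p = 4.1e-10), between 0.24 and 1.40 in the 8 combinations. In saline libraries alone, where ethanol plays no part, it was 0.61 (adjusted p = 0.00046). Depp1, Fam214a and Sesn1 kept their strain call in all 90 other settings tried.

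Sesn1 had the clearest separation of the sestrins, at 70.0, 79.4 and 92.1 CPM in C57BL/6J and 62.6, 68.4 and 77.8 CPM in DBA/2J. All 32 DBA/2J libraries lay below the C57BL/6J median, and 20 lay below every C57BL/6J library. The difference was -0.21 (SE 0.0192, adjusted p = 4.5e-14). Sesn3 stood at 105, 126 and 150 CPM against 103, 113 and 138 CPM, with 28 of 32 DBA/2J libraries below the C57BL/6J median. Its difference was -0.11 (SE 0.0298, adjusted p = 0.0014), with no call in saline libraries alone (-0.08, adjusted p = 0.12), in noFC libraries alone (-0.10, adjusted p = 0.058) or in the second round of titles (-0.07, adjusted p = 0.19).

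Bbc3 had 5.59, 7.68 and 10.3 CPM in C57BL/6J and 5.10, 6.89 and 9.84 CPM in DBA/2J. The ranges nearly coincided, with 28 DBA/2J libraries below the C57BL/6J median and 3 below every C57BL/6J library. The difference was -0.15 (SE 0.0404, adjusted p = 0.0011). This call depended on how Bbc3 was counted, since the sum of its transcript estimates gave -0.02 (adjusted p = 0.7). It was also lost in the second round of titles (-0.05, adjusted p = 0.6), in saline libraries (-0.14, adjusted p = 0.061) and in noFC libraries (-0.14, adjusted p = 0.071).

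Fam214a stood at 51.3, 59.1 and 65.3 CPM in C57BL/6J and 42.4, 50.2 and 63.1 CPM in DBA/2J. Of the DBA/2J libraries 29 lay below the C57BL/6J median and 18 below every C57BL/6J library. In saline libraries the gap was wider, with 15 of 16 DBA/2J libraries below all 15 of C57BL/6J. The difference was -0.23 (SE 0.0197, adjusted p = 1.1e-14), between -0.35 and -0.10 in the 8 combinations.

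**Figure D1:**
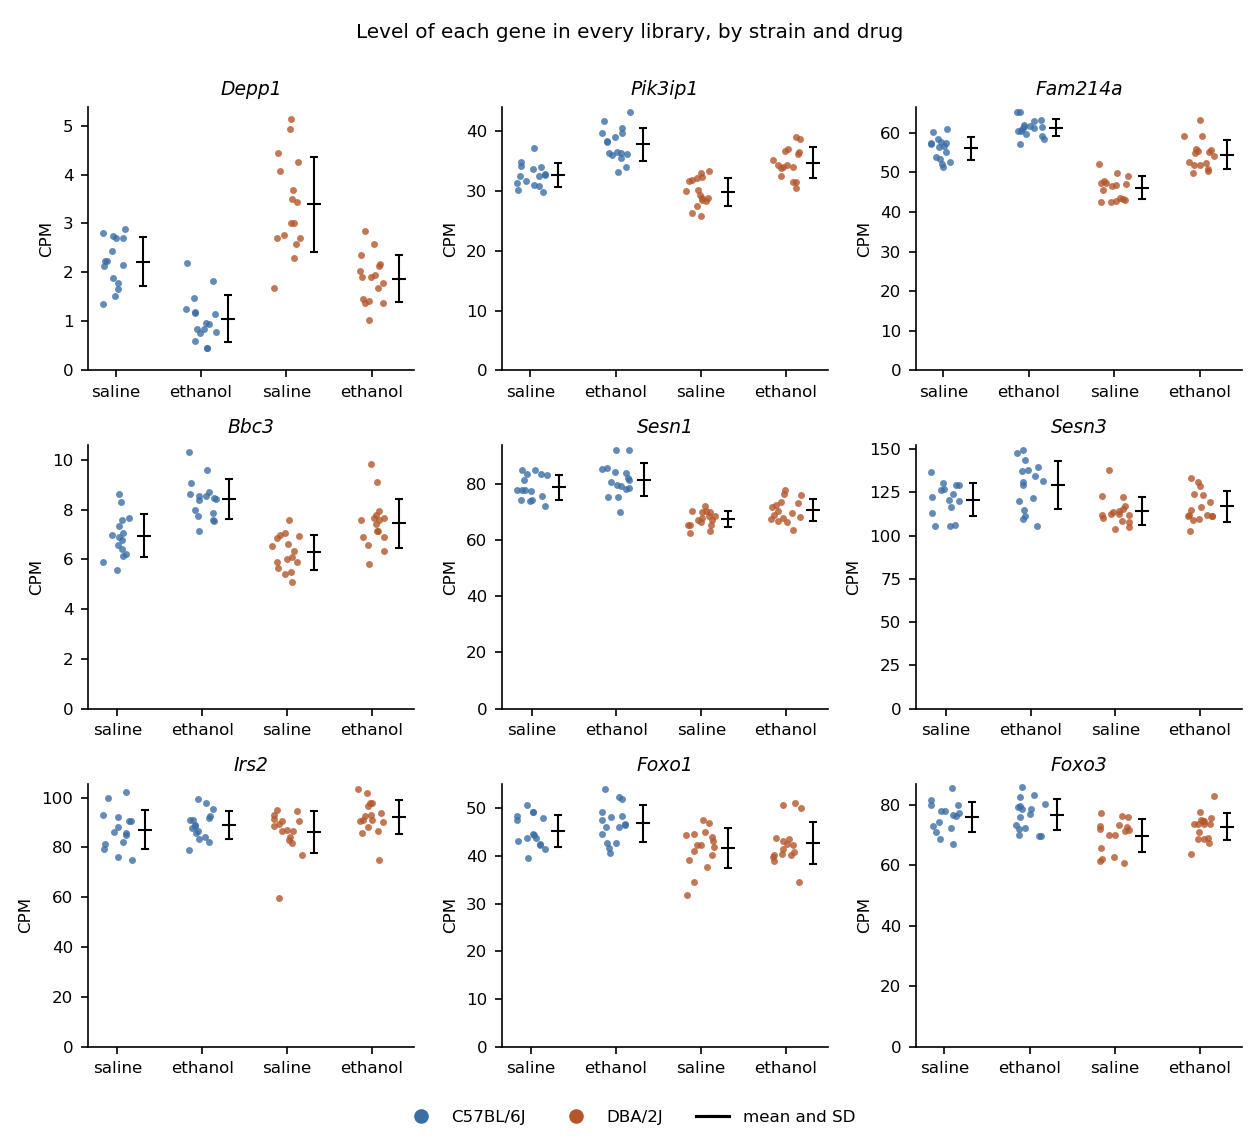
Level of each of the 9 genes in CPM (vertical axes, from 0) in every library, by strain (colour) and drug (horizontal axis); each point is a library, and the bar is the mean and SD of 15 or 16 libraries. Depp1 lies lower with ethanol and higher in DBA/2J, while Pik3ip1, Fam214a and Bbc3 lie higher with ethanol and lower in DBA/2J; Irs2, Foxo1 and Foxo3 show wide overlap between saline and ethanol.

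Markers of other cell types differed between the strains as well. All 8 oligodendrocyte markers were called lower in DBA/2J (list median -0.41), with summed levels of 5128 to 14480 CPM (median 10340) against 8428 to 18140 CPM (median 13590) in C57BL/6J. All 4 markers of dentate gyrus granule cells were called lower (median -0.61), with sums of 137 to 337 CPM (median 252) against 235 to 414 CPM (median 332). No marker of either list was at 0. Blood markers went the other way (list median 0.61), with 3 of 5 called higher in DBA/2J and 1 lower. In whole tissue, fewer cells of a type and less RNA per cell cannot be told apart. Within groups, the mean level of the dentate gyrus markers varied over the 63 libraries with Foxo3 (Pearson r = 0.532, rho 0.56) and Sesn1 (r = 0.505, rho 0.4). The other lower genes had r = 0.346 (Bbc3), 0.297 (Fam214a), 0.166 (Foxo1), -0.0346 (Pik3ip1) and -0.281 (Sesn3). The mean level of the oligodendrocyte markers had r = 0.415 with Sesn3 and 0.354 with Pik3ip1. For the other 5 lower genes it had r between -0.233 and 0.0732. Sesn3 had r = -0.705 (rho -0.677) with the markers of CA1 pyramidal cells. Other lists gave values of similar size to those above, such as -0.532 (CA3) and 0.46 (endothelial) for Sesn3. Sesn1 had 0.44 with CA3 and -0.397 with interneuron markers. Depp1, higher in DBA/2J, lay between -0.267 (blood) and 0.151 (choroid plexus) over all the marker lists. These correlations are a description without a test, and the part of these cell types in the strain differences was not tested. With the choroid plexus level as a covariate all 8 strain calls remained, with differences from -0.23 to -0.10 and 0.75 for Depp1. The build GRCm38 derives from C57BL/6J, and the part of mismatched DBA/2J reads in these differences was not tested.

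Other genes of the pathway, in lists drawn up around these 9, differed between strains in both directions. Of 12 genes for ligands, receptors and adaptors of insulin and IGF, 2 were higher in DBA/2J and none lower. The 2 were Igf1, a growth factor (0.14, SE 0.0438, adjusted p = 0.0084), and Igfbp5, which binds it (0.12, SE 0.036, adjusted p = 0.0049). The Igf1 call was lost in saline libraries (0.06, adjusted p = 0.55) and in the second round of titles (0.07, adjusted p = 0.32), and the Igfbp5 call in saline libraries (0.10, adjusted p = 0.12) and in the first round (0.08, adjusted p = 0.13). Of 18 genes for PI3 kinase, AKT and opposing phosphatases 6 were higher and 4 lower. Among the catalytic subunits of PI3 kinase, Pik3cd was higher (0.17) and Pik3cb lower (-0.17). Pik3r2, a regulatory subunit, was higher (0.18), as was Phlpp2, a phosphatase that acts on AKT (0.12). Of 12 other FoxO factors and regulators 2 were higher and 3 lower, including Foxo6 (-0.22, adjusted p = 0.0032), the FoxO gene known for its expression in hippocampus. The call for Foxo6 was lost in each round of titles alone (adjusted p = 0.083 and 0.081), in saline libraries (adjusted p = 0.17) and in noFC libraries (adjusted p = 0.092).

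Of 25 other FoxO target genes with enough counts 7 had a higher and 9 a lower level in DBA/2J, at a list median of -0.04 beside 0.01 over all genes tested. Eif4ebp1, a repressor of translation, was higher (3.38 ± 0.438 CPM against 1.94 ± 0.371, a log2 difference of 0.80, adjusted p = 3e-18). Pdk4, a mitochondrial kinase that limits glucose oxidation, was higher too (17.9 ± 3.25 against 11.6 ± 1.91 CPM, 0.63, adjusted p = 3.5e-14). The mitophagy gene Bnip3 (-0.19) and Trp53inp1 (-0.34) were lower. FoxO targets other than Depp1 lay on both sides. Of 19 p53 targets 8 were lower, among them Ddb2, a DNA repair gene (-0.49), Trp53inp1 and Eda2r (-1.03). Eda2r was scarce, with 0.367 ± 0.139 CPM in DBA/2J against 0.741 ± 0.190 CPM in C57BL/6J. In the same list 2 were higher, among them Pmaip1, which encodes NOXA (1.27, SE 0.0767, adjusted p = 7.1e-21). The p53 list had a median of -0.07.

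Around the sestrins, 7 of 18 partners and regulators of mTORC1 were higher and 6 lower. Tsc2 (-0.24) and Nprl3 (-0.27), which restrain mTORC1, were lower, while Rheb (0.16), its activator, and Wdr24 (0.16), a part of the GATOR2 complex that sestrins bind, were higher. Around Bbc3, 3 of 12 BCL2 family genes were higher, including Pmaip1 and Hrk (0.43, adjusted p = 6.6e-18), and 3 lower, including Bmf (-0.57, adjusted p = 8e-11) and Bok (-0.42, adjusted p = 8.2e-11). Over the 7 lists the called share ran from 2 of 12 genes to 13 of 18, beside the 50.0% of all genes, and Trp53inp1 and Pmaip1 are counted in 2 lists each.

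**Figure D2:**
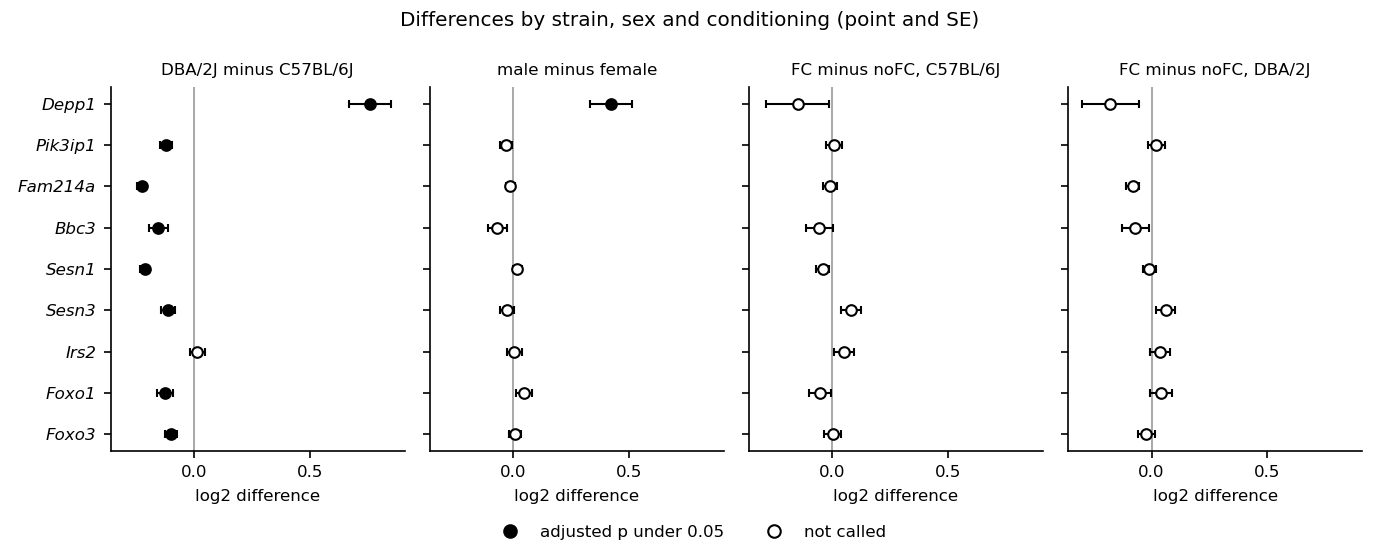
Log2 difference (horizontal axes) of each of the 9 genes by strain, by sex and by conditioning within each strain; points are estimates, bars the SE, and filled points passed an adjusted p of 0.05. For strain 7 filled points lie left of 0 with Depp1 alone on the right, and Depp1 is the single filled point for sex.

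The comparison of males with females asked whether any of these genes depended on sex. Depp1 was higher in males over all libraries but was not called in saline libraries alone, and the other 8 genes were not called. In females Depp1 had 0.451, 1.25 and 2.89 CPM (lowest, median and highest of 16) in C57BL/6J and 1.04, 2.23 and 4.26 CPM (16) in DBA/2J. In males it had 0.943, 1.83 and 2.81 CPM (15) in C57BL/6J and 1.47, 2.58 and 5.14 CPM (16) in DBA/2J. The sexes overlapped within both strains, and 7 of 16 C57BL/6J females lay below all males of that strain. The difference was 0.42 (SE 0.0915, adjusted p = 0.015), 1.34 times as high in males, and positive in 7 of 8 combinations of strain, drug and conditioning (-0.07 to 1.26). In fits of each drug alone, added after seeing the data, it was 0.20 with saline (SE 0.131, adjusted p = 1) and 0.64 with ethanol (SE 0.122, adjusted p = 0.012). The dependence on the drug itself, given below, did not pass its test. This was 1 of 9 genes, where 0.200% of all genes were called (40 of 19974).

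This call depended on which libraries were included. In the first round of titles the difference was 0.44 (adjusted p = 0.63) and in the second 0.37 (adjusted p = 0.25). It remained when any 1 of the 63 libraries was left out (highest adjusted p 0.045), but was lost without the 4 libraries of any 1 of 7 title numbers (B6_F_315, B6_M_318, B6_M_322, DBA_F_313, DBA_F_317, DBA_M_316 and DBA_M_320), with the difference never below 0.37. With the choroid plexus level as a covariate it was 0.42 (adjusted p = 0.016). Choroid plexus markers were higher in males for 10 of 10 genes (median 0.55, none called), with sums of 40.7 to 12260 CPM in females and 32.9 to 11010 CPM in males. Meningeal and fibroblast markers were higher for 8 of 8 (median 0.25), endothelial markers for 9 of 10 (median 0.05) and blood markers for 5 of 5 (median 0.38), none called. The part of meningeal cells and blood in the Depp1 difference was not tested.

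For the other 8 genes the sex difference lay between -0.07 (Bbc3, 95% interval -0.15 to 0.01) and 0.05 (Foxo1, interval -0.02 to 0.11), with adjusted p of 0.93 or more. Of the surrounding lists, Igfbp5 was higher in males (0.17, SE 0.036, adjusted p = 0.012), a call lost in each round of titles, with each drug alone and with the endothelial level as a covariate (adjusted p = 0.056). No other gene of the 7 lists was called.

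**Figure D3:**
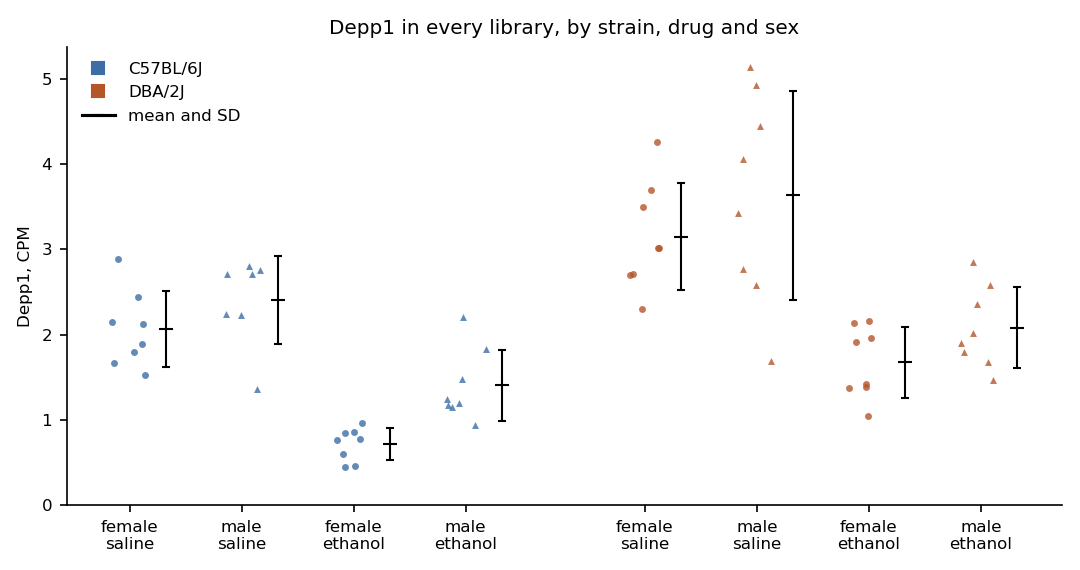
Depp1 in CPM (vertical axis) in every library by strain (colour), sex (circles female, triangles male) and drug; bars are the mean and SD of 7 or 8 libraries. Males lie higher than females in each pairing by mean, and the 8 female C57BL/6J libraries with ethanol, between 0.451 and 0.965 CPM, are the lowest set.

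Conditioning was compared within each strain, FC against noFC, to ask whether fear learning changed these genes. None of the 9 was called in either strain, and no gene at all was called by edgeR (0% of 19974 in C57BL/6J and 0% in DBA/2J). At an unadjusted p under 0.05 edgeR had 786 genes in C57BL/6J and 670 in DBA/2J, and DESeq2 called 2 and 0 genes. Depp1 had medians of 1.20 CPM with FC and 1.75 CPM without in C57BL/6J, and 2.33 and 2.64 CPM in DBA/2J, with wide overlap. Its differences were -0.15 (95% interval -0.42 to 0.12) and -0.18 (interval -0.42 to 0.06). Fam214a in DBA/2J had the smallest unadjusted p of the 18 tests (0.0048, adjusted p = 1), with medians of 49.8 CPM with FC and 51.3 CPM without and a difference of -0.08 (SE 0.0277). Sesn3 had 0.08 in C57BL/6J (interval 0.00 to 0.16) and 0.06 in DBA/2J, and Foxo3 0.00 and -0.02. Choroid plexus markers were higher with FC for 10 of 10 genes in DBA/2J (median 1.36) and 5 of 10 in C57BL/6J (median 0.01), none called. With their level as a covariate none of the 9 genes was called in either strain.

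The conditioning differences were not called as differing between the strains for any of the 9 genes (0% of all genes, 725 at an unadjusted p under 0.05, and 0 by DESeq2). The smallest unadjusted p was 0.077, for Fam214a. For Depp1 the difference between strains was -0.03, with an interval of -0.39 to 0.33 that is wider than the conditioning differences themselves.

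Ethanol values are a description, since they chose the genes. After ethanol Depp1 was the gene that lay lower, while Pik3ip1, Fam214a and Bbc3 lay higher, in both strains and in all 8 combinations of strain, sex and conditioning. The sestrins, Irs2 and the FoxO genes lay within 0.10 of 0 on the log2 scale. Of all genes tested, 0.0901% (18) passed the adjusted threshold in C57BL/6J and 0.295% (59) in DBA/2J.

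Foxo1 had 39.7, 44.4 and 50.7 CPM with saline and 40.6, 46.6 and 54.1 CPM with ethanol in C57BL/6J, and 31.9, 42.2 and 47.5 CPM against 34.6, 41.9 and 51.1 CPM in DBA/2J. Foxo3 had 67.2, 76.6 and 85.6 CPM against 69.6, 77.9 and 85.8 CPM in C57BL/6J, and 60.8, 71.6 and 77.5 CPM against 63.9, 73.8 and 83.1 CPM in DBA/2J. The transcripts of the factors overlapped almost fully between drug groups, with log2 differences of 0.05 and 0.04 for Foxo1 and 0.01 and 0.06 for Foxo3 in the 2 strains. RNA levels do not show where the FoxO proteins are in the cell.

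Irs2 had 75.0, 86.4 and 102 CPM with saline and 79.0, 88.6 and 99.3 CPM with ethanol in C57BL/6J. In DBA/2J it had 59.7, 87.8 and 95.2 CPM against 74.9, 91.8 and 103 CPM, where 5 ethanol libraries lay above every saline library. Its differences were 0.03 (SE 0.0442) and 0.10 (SE 0.0433).

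Pik3ip1 had 29.8, 32.6 and 37.3 CPM with saline and 33.2, 37.4 and 43.2 CPM with ethanol in C57BL/6J. In DBA/2J it had 25.8, 29.7 and 33.4 CPM against 30.5, 34.3 and 39.1 CPM. All 16 ethanol libraries of each strain lay above the mean of its saline libraries, and 8 and 12 lay above every saline library. The differences were 0.21 (SE 0.0362) and 0.22 (SE 0.0356).

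Depp1 had 1.36, 2.23 and 2.89 CPM with saline and 0.451, 0.954 and 2.20 CPM with ethanol in C57BL/6J. In DBA/2J it had 1.69, 3.23 and 5.14 CPM against 1.04, 1.91 and 2.85 CPM. All 16 ethanol libraries of each strain lay below the median of its saline libraries. Below every saline library lay 13 ethanol libraries in C57BL/6J and 6 in DBA/2J. The differences were -1.15 (SE 0.135) and -0.86 (SE 0.123), to 0.451 and 0.552 times the saline level. Ethanol-treated DBA/2J mice had a Depp1 median (1.91 CPM) below that of saline-treated C57BL/6J mice (2.23 CPM).

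Sesn1 had 71.9, 77.6 and 84.9 CPM with saline and 70.0, 81.0 and 92.1 CPM with ethanol in C57BL/6J, and 62.6, 67.4 and 72.1 CPM against 63.7, 69.8 and 77.8 CPM in DBA/2J. Sesn3 had 106, 122 and 137 CPM against 105, 131 and 150 CPM in C57BL/6J, and 104, 113 and 138 CPM against 103, 113 and 133 CPM in DBA/2J. The drug groups overlapped widely for both sestrins. The differences were 0.05 (SE 0.0274) and 0.07 (SE 0.027) for Sesn1, and 0.09 (SE 0.0426) and 0.03 (SE 0.0418) for Sesn3.

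Bbc3 had 5.59, 6.92 and 8.64 CPM with saline and 7.14, 8.44 and 10.3 CPM with ethanol in C57BL/6J. In DBA/2J it had 5.10, 6.22 and 7.57 CPM against 5.80, 7.51 and 9.84 CPM. Of the ethanol libraries 5 and 8 lay above every saline library of their strain. The differences were 0.29 (SE 0.0575) and 0.25 (SE 0.0568).

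Fam214a had 51.3, 56.5 and 60.8 CPM with saline and 57.3, 61.3 and 65.3 CPM with ethanol in C57BL/6J. In DBA/2J it had 42.4, 46.6 and 52.1 CPM against 49.9, 54.6 and 63.1 CPM. All 16 ethanol libraries of each strain lay above the mean of the saline libraries, and 10 and 11 above every saline library. The differences were 0.13 (SE 0.0281) and 0.24 (SE 0.0277).

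Ethanol values in the 7 surrounding lists are a description too, since the lists were drawn up with earlier results known. No gene of these lists passed the adjusted threshold in C57BL/6J. In DBA/2J 2 genes passed it, both higher, beside 0.295% of all genes. With lists chosen this way, neither this count nor the medians below are a test of the lists. Txnip, a FoxO target that limits glucose uptake, had 19.4, 29.5 and 48.6 CPM with saline and 31.7, 39.9 and 49.7 CPM with ethanol (0.44, SE 0.0909). Ddit4, an inhibitor of mTORC1, had 56.8, 72.1 and 83.3 CPM against 70.4, 82.0 and 91.9 CPM (0.20, SE 0.0447). In the second round of titles alone neither passed in DBA/2J (0.29 and 0.13), and in the first round Ddit4 did not pass either (0.27). In C57BL/6J the Txnip median was 33.3 CPM with saline and 39.8 CPM with ethanol. The Ddit4 median there was 84.4 CPM with saline and 80.8 CPM with ethanol, the other way from DBA/2J, with overlapping ranges. The median over 25 other FoxO targets was 0.03 in C57BL/6J and 0.05 in DBA/2J, beside 0.00 over all genes in each strain.

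The dependence of the ethanol difference on conditioning and on sex was tested, as the choice of genes did not use it. No gene was called for the dependence on conditioning (0% of 19974 by edgeR, 592 at an unadjusted p under 0.05, 0 by DESeq2). For Depp1 the ethanol difference with FC minus that without was 0.02 (SE 0.185, interval -0.34 to 0.38). The 9 genes lay between -0.08 (Irs2) and 0.08 (Bbc3), with unadjusted p of 0.19 or more. No gene was called for the dependence on sex either (0% by edgeR, 1011 at an unadjusted p under 0.05, 0 by DESeq2).

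For Depp1 the ethanol difference was less negative in males than in females by 0.44 (SE 0.183, unadjusted p = 0.02, adjusted p = 0.93), which did not pass. In C57BL/6J females it had 1.52, 2.01 and 2.89 CPM with saline and 0.451, 0.770 and 0.965 CPM with ethanol, without overlap. In C57BL/6J males it had 1.36, 2.71 and 2.81 CPM with saline and 0.943, 1.22 and 2.20 CPM with ethanol, with overlap. In DBA/2J the medians were 3.02 and 1.67 CPM in females and 3.75 and 1.96 CPM in males. Fam214a had the next smallest unadjusted p (0.06), with -0.08.

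Transcript usage, meaning how the estimated counts of a gene are divided over its transcripts, differed between strains for Bbc3 and Sesn1. It could be tested for 5 of the 9 genes, those with at least 2 transcripts above 5% of the gene, and 2 of the 5 were called, beside 25.7% of 9512 genes. Foxo1 and Irs2 each have a single annotated transcript here, and 1 transcript held over 99% of the counts of Foxo3 and Sesn3.

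For Bbc3 the transcript Bbc3-203, annotated as a retained intron (16313517 to 16317697), held 0%, 11.8% and 32.1% of the counts (lowest, median and highest) in C57BL/6J and 0%, 0% and 15.2% in DBA/2J. It was at 0 in 7 of 31 C57BL/6J libraries and in 23 of 32 of DBA/2J, so the ranges overlapped from 0 to 15.2%. The protein-coding Bbc3-201 held 83.4% ± 9.69 (SD, n = 31) in C57BL/6J and 94.5% ± 5.37 (SD, n = 32) in DBA/2J (diffSplice in limma, adjusted p = 2.1e-08 for the gene). Bbc3-203 rests on a mean of 14.1 estimated counts per library. The lower Bbc3 gene count in DBA/2J and its absence from the summed transcript estimates, given above, concern the same gene, and their relation was not tested.

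For Sesn1 the long transcript Sesn1-202, which starts at 41809935, held 5.32%, 7.24% and 12.6% in C57BL/6J and 5.21%, 8.63% and 11.1% in DBA/2J. Of 32 DBA/2J libraries 25 lay above the C57BL/6J median. Sesn1-201, which starts at 41887439 just after the Sesn1 stretch printed above, held 92.7% ± 1.38 and 91.4% ± 1.52 (adjusted p = 0.00013). With a minimum share of 10% neither Bbc3 nor Sesn1 had 2 transcripts left to test, and in the first round of titles alone Sesn1 was not called (adjusted p = 0.08).

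Depp1 (adjusted p = 0.11), Pik3ip1 (0.076) and Fam214a (0.62) were not called. Depp1-201 held 84.1% ± 26.2 in C57BL/6J and 75.7% ± 23.2 in DBA/2J, a wide spread at its low counts. Pik3ip1-201 held 85.6% ± 2.28 and 85.2% ± 2.95. Transcript usage did not differ between ethanol and saline for any of the 5 genes by this test (adjusted p from 0.7 to 1), beside 1.88% of all genes called.

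**Figure D4:**
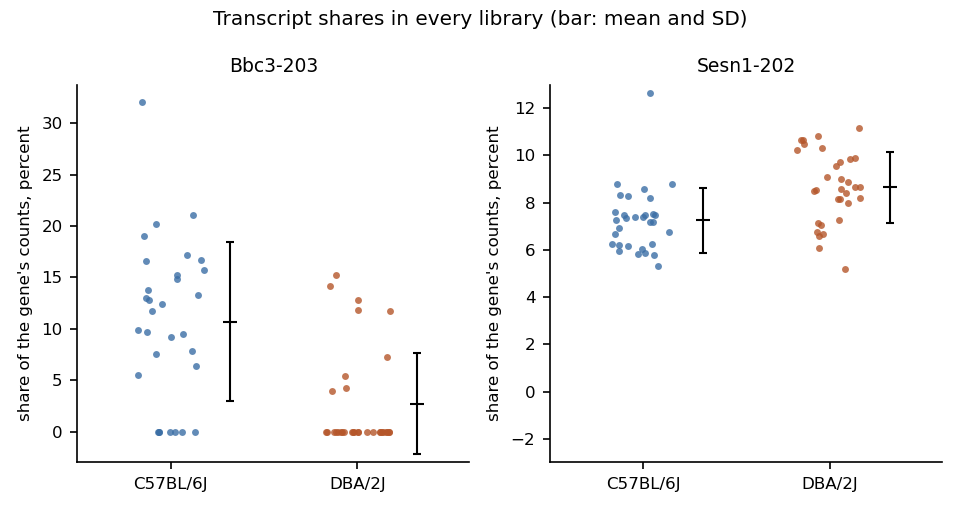
Share in percent of the gene's estimated counts (vertical axes) held by the retained intron transcript Bbc3-203 and by Sesn1-202 in every library of each strain; points are libraries, bars the mean and SD. Bbc3-203 is at 0 in 23 of 32 DBA/2J libraries and 7 of 31 C57BL/6J libraries, and Sesn1-202 lies above the C57BL/6J median in 25 of 32 DBA/2J libraries.

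Whether the genes varied together from library to library was examined after the mean of each of the 16 groups had been removed, over 63 libraries and all 36 pairs. The FoxO factors moved with Irs2. Irs2 and Foxo3 had Pearson r = 0.635 and Spearman rho = 0.629 (permutation within groups, two-sided, 100000 resamples, p = 1e-05, the smallest they can give, adjusted p = 0.00036). The relation held within the rounds of titles (0.624 and 0.702) and without the 2 libraries farthest from the median of Irs2 (0.603). Irs2 and Foxo1 had r = 0.637 and rho = 0.618 (permutation p = 9e-05, adjusted p = 0.0016), with 0.767 in the first round and 0.216 in the second, and 0.607 without the 2 farthest libraries. These were the 2 pairs called, both positive.

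Foxo1 and Foxo3 had r = 0.399 (rho 0.394, adjusted permutation p = 0.062). Depp1 and Pik3ip1, on opposite sides of the ethanol comparison, had r = 0.311 (rho 0.26, adjusted permutation p = 0.14), and 0.168 without the 2 farthest libraries. Depp1 had its highest value with Foxo3 (r = 0.37, rho 0.394, adjusted permutation p = 0.068). Bbc3 had r = 0.393 with Irs2 and 0.374 with Foxo3 (adjusted permutation p = 0.058 for each). Sesn1 and Sesn3 had r = -0.04 (rho 0.04, adjusted permutation p = 0.98), and Fam214a lay between -0.02 and 0.18 with every other gene.

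**Figure D5:**
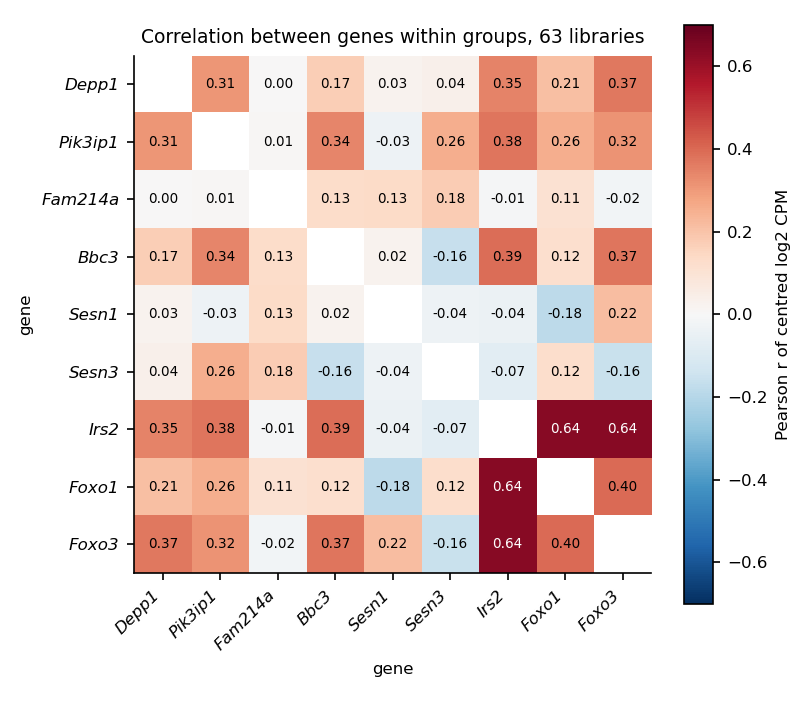
Pearson r (colour and number) between each pair of the 9 genes (both axes) over 63 libraries, from log2 CPM with each group's mean removed. The highest values, both 0.64 as rounded, are those of Irs2 with Foxo1 and with Foxo3, and Sesn1 and Fam214a lie near 0 with most genes.

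Over all 13812 genes with a symbol and a mean log2 CPM above 0, the genes whose levels tracked 3 of the genes most closely were listed by Pearson r over the 63 libraries, with each group's mean removed. These values are a description without a test, and the libraries are shared by all of them. For Depp1 they were Bcor (0.55), Elmsan1 (0.503), Armc5 (0.484), Pml (0.479) and Notch3 (0.478), with Akr1e1 (-0.563), AL731706.1 (-0.527) and Snx25 (-0.527) at the other end. With only the mean of strain and sex removed, so that drug and conditioning stay in, these Depp1 values ran from -0.189 to 0.231. For Pik3ip1 the closest included Aldh9a1 (0.678), Slc3a2 (0.63), Fkbp10 (0.63) and Aldh4a1 (0.629), and the most opposed Nmt2 (-0.67), Dcaf13 (-0.655) and Tmem136 (-0.639). For Fam214a they were Ash2l (0.61), Tnik (0.571), Ildr2 (0.552), Arntl2 (0.529) and Fyco1 (0.529), against Fkbp4 (-0.609), Cdk2ap2 (-0.606) and Trmt44 (-0.577). With only the mean of strain and sex removed, the Pik3ip1 values ran from 0.47 to 0.559 and from -0.589 to -0.294. Those of Fam214a then ran from 0.23 to 0.478 and from -0.742 to -0.373.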

How the data were processed

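RNA was measured in 63 libraries of mouse dorsal hippocampus. The authors deposited whole-number read counts for genes and, in a separate table, estimated counts for transcripts. Per the labels, stranded poly(A) libraries were read from a single end, and per the submitters' processing notes the tools were DESeq2, fastp, featureCounts, HISAT2 and Salmon, with GRCm38. Versions are not given in the sources used here. Symbols came from GENCODE M21, which held 55141 of 55401 gene identifiers, and promoter sequences from RefSeq (GRCm38.p6).

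The genes and the lists around them were chosen with earlier results of these data known. All 9 genes are named in every contrast, and at most 4 called genes per list by smallest p. Any other gene would have been chosen after its values were seen. A gene that tracked Pik3ip1 is not reported here.

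A filter on low counts (filterByExpr, minimum count 10) left 19974 genes holding 99.95% of the counts. Levels are CPM after TMM scaling (factors 0.959 to 1.05), with a prior count of 2 for log2 values. Contrasts were fitted over all 16 groups with edgeR 4.0.16 in R 4.3.3 (glmQLFit and glmQLFTest, two-sided), each group weighing the same within a side of a contrast, and adjusted by Benjamini and Hochberg. Transcript usage was fitted in limma 3.58.1 (voom, then diffSplice) on rounded estimated counts, for 26772 transcripts of 9512 genes. Both scripts were tested on simulated data. Alternatives were DESeq2 1.42.0, other scaling, no filter, gene sums of transcript counts, single rounds of titles, covariates, the title number as a block, subsets, leaving out libraries and, added after seeing the data, sex within each drug.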

Additional observations from a re-analysis of the deposited data

Results flagged for a closer look

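In the 72 sets of 7 or 8 libraries of the same strain, drug and conditioning (9 genes in 8 sets), 2 libraries lay far from the others of their set by Dixon's criterion. Chance flags about 5% of sets, or 3.6 here. Irs2 stood at 59.7 CPM in the library DBA_F_noFC_SAL_313 of female, unconditioned, saline-treated DBA/2J mice, where the nearest of the other 7 had 77.2 CPM and the set had a mean of 83.8 ± 10.7 CPM (SD, n = 8). Foxo1 stood at 50.7 CPM in the library B6_M_FC_SAL_318 of male, fear-conditioned, saline-treated C57BL/6J mice, where the nearest had 44.4 CPM and the set a mean of 43.9 ± 3.43 CPM (SD, n = 7). Their total counts, 24653288 and 31216630, lie within the range of the other libraries. No strain call for the 9 genes was lost when either library was left out.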

How the results depend on the processing

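The single-gene values recomputed were those of the 9 genes and the listed genes, and the correlations of the genes that tracked Depp1, Pik3ip1 and Fam214a. Of these, 7508 were counted as unchanged, 41 as no longer called and 21 as moved. All 21 were correlations with only the mean of strain and sex removed. None was counted as reversed. The count of unchanged values does not mean that every value kept its direction and side of the threshold. The strain difference of Irs2, which was not called, ran from -0.0027 to 0.0329 over the leave-outs. For the ethanol values of the 9 genes, which chose them, only the size of the shift was judged, whichever side of the threshold they lay on. That of Fam214a in C57BL/6J ran from 0.11 to 0.14 over the 79 leave-outs. The strain calls of the 9 genes were 8 in every setting that left out a library or title number, and 5 in the second round of titles. The sex call (1 gene) was 0 in each round, 0 in saline libraries alone (chosen after seeing the data) and 0 to 1 over the leave-outs, and usage calls by strain (2 genes) were 0 at a minimum share of 10% and 1 in the first round.

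Counts of called genes moved as follows. For conditioning in C57BL/6J the count of 0 became 2 with DESeq2, with the round as a covariate and with the choroid plexus or endothelial level as a covariate, and 0 to 4 over the leave-outs. For ethanol by sex it became 1 with gene sums of transcript counts and 41 in the first round. For sex (40) it was 26 with gene sums, 17 in the first round, 23 in the second and 17 in saline libraries alone. For ethanol in C57BL/6J (18) it was 0 and 1 in the rounds and 5 to 20 over the leave-outs. For ethanol in DBA/2J (59) it was 107 with DESeq2, 33 without a filter, 15 in the second round and 16 to 118 over the leave-outs. For usage by strain (2443) it was 1546 in the first round, and for usage by ethanol (179) it was 98 at a minimum share of 10% and 81 and 89 in the rounds. Single rounds and drugs hold fewer libraries; the cause of the other shifts was not tested.

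With the title number as a replicate block, 109 genes in place of 59 were called for ethanol in DBA/2J, and no other call for the 9 genes changed. A block is not possible for strain and sex, which do not share numbers. The pairing check gave correlations of -0.52 to 0.48 (median 0.04) over 93 same-number pairs and a median of -0.00971 over 279 other pairs. Of the 93, 32 were over 0.1, and the labels tie nothing to the number, so it was not used as a pairing. Yet 29 of 63 libraries correlated best with their own number, although same-number pairs were 93 beside 279 others. The strain and sex tests treat the libraries of a number as independent. If they are not, the strain and sex p-values are too small. At 10 to 142 counts per library, Depp1 has the widest intervals, and intervals and SE cover the spread between libraries with counting error.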
